A study of Homo sapiens with 24 samples.

Results

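The Hippo pathway genes described here are 10 members chosen by symbol from the 60448 gene symbols of the deposited tables. They are the kinases STK3, STK4, LATS1 and LATS2, the transcriptional coactivators YAP1 and WWTR1 (the gene of TAZ), and the YAP targets CTGF (also CCN2), CYR61 (also CCN1), ANKRD1 and AMOTL2. They were chosen for their known roles, with earlier results of these data known. All 10 were listed in every library and all are annotated as protein-coding, among 19203 such symbols.

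In the Hippo pathway, the kinases encoded by STK3 and STK4 (MST2 and MST1) activate the kinases LATS1 and LATS2. These phosphorylate YAP and TAZ, which are then held in the cytoplasm or degraded. Unphosphorylated YAP and TAZ enter the nucleus and, with TEAD transcription factors, switch on genes of growth, adhesion and matrix, and in epithelia the pathway is known for tying these genes to cell density and tissue stiffness. Because this control acts on protein and its location, an mRNA level of a kinase or coactivator is not a measure of pathway activity.

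RNA was sequenced in 24 libraries of BPH-1 and RWPE-1, human prostate epithelial lines immortalized by SV40 and HPV18, to compare vector control cells, cells with raised wild-type C-Raf (C-Raf parental) and lines regrown from their metastases. The 12 BPH-1 libraries comprised 3 of vector control, 3 of C-Raf parental and 6 of metastasis-derived cells, and the 12 RWPE-1 libraries 1, 4 and 7 of these. C-Raf was delivered to the C-Raf groups by lentivirus, and luciferase reporters were carried by the engineered cells of both lines. Metastasis-derived lines came from tumors that formed in immune-deficient NSG mice after intracardiac injection of C-Raf parental cells, and were cultured before RNA was taken. The RWPE-1 lines were labelled lymph node (LN1A and LN1B), spine (Spine and Spine2) and bone (Bone4, Bone5 and Bone6), and 4 BPH-1 lines were labelled bone (R069, R071, R072 and R074). For the 2 BPH-1 lines numbered R075 the labels name different sites, so they are called here thymus-titled R075 and bone-titled R075 with no site assigned. RWPE-1 was grown in keratinocyte serum-free medium with EGF and pituitary extract and BPH-1 in medium with serum, so that cell line and medium cannot be told apart. Nothing in the sources used here says that replicates came from separate cultures, so p-values measure only the spread between these libraries, which may be technical. Which animal each line came from is not given in the sources used here.

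The deposited values were expected counts, the reads that RSEM assigns to each symbol. Levels are given as CPM, counts scaled to the protein-coding total of each library with TMM factors, and as CPM per kilobase of exon where genes are compared with each other. Total counts ran from 25997814 to 52851374 in 21 libraries. The BPH-1 lines R071, R074 and bone-titled R075 had only 111162 to 464692 protein-coding counts, and the noncoding RNA RN7SL1 took 93.3% to 97.5% of their counts, so they entered no main fit. RN7SL1 took 4.60% to 30.3% of counts in R069, R072 and thymus-titled R075 and at most 0.0093% in the remaining 18. All BPH-1 metastasis-derived libraries were in a table of their own, so stage and table cannot be told apart in BPH-1. RWPE-1 was split over 2 tables, one with the vector control, C-Raf parental 1, LN1A, LN1B and Spine, and another with C-Raf parental 2 to 4, Spine2 and the bone lines. No table held both cell lines, so cell line, medium and table cannot be told apart. In the 21 deeper libraries the 6 epithelial markers, led by KRT5, summed to between 1769 and 8501 CPM. The 6 fibroblast markers summed to 52.3 to 71.98 CPM in the deeper BPH-1 metastasis-derived libraries against 12.1 to 12.4 CPM in BPH-1 C-Raf parental cells, led by COL1A1, and the 3 endothelial markers reached 40.9 CPM there against at most 1.62 CPM. All 6 haematopoietic markers together stayed between 6.03 and 23.4 CPM in the deeper BPH-1 metastasis-derived libraries. In RWPE-1 the fibroblast markers summed to 12.2 to 60.3 CPM in metastasis-derived and 9.30 to 22.0 CPM in C-Raf parental libraries. The haematopoietic markers, led by CD68, summed there to 78.0 to 160 CPM and 58.4 to 141 CPM, and the endothelial markers to at most 0.223 CPM. The part of these markers in the results of either cell line was not tested.

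CTGF, ANKRD1 and AMOTL2 are shown with the DNA next to their annotated start because they are the targets with a RefSeq window that holds the letters GGAATG or CATTCC, the core that TEAD factors bind. GGAATG and its reverse complement CATTCC were searched on both strands in the 250 bases before each RefSeq start (GRCh38.p14). RefSeq windows were matched for 8 members, in 11 windows. CYR61 and STK3 had no window and were not searched. Of all 35116 windows, 11.9% held at least 1 match, 0.9397% at least 2 and 0.0826% at least 3. CTGF held 3 matches, beginning 169, 104 and 95 bases before the start. ANKRD1 held 2, at 220 and 128 bases, AMOTL2 held 1, at 69 bases in 1 of its 2 windows, and YAP1 held 1, at 162 bases. No match was found in the windows of STK4, LATS1, LATS2 and WWTR1. A match is only a match of letters. Each sequence below is from RefSeq, GRCh38.p14, minus strand, 5′ to 3′, with the matches in capitals.
CTGF, chr6:131951374-131951622, before the first exon: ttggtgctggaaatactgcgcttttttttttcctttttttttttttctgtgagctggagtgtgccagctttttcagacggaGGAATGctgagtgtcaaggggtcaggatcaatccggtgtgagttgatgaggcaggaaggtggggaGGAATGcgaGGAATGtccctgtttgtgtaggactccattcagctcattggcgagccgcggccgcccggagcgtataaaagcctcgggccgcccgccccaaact
ANKRD1, chr10:90921277-90921337, before the first exon: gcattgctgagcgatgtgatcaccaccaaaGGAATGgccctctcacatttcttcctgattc
ANKRD1, chr10:90921198-90921227, inside an annotated first exon: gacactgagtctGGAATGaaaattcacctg
AMOTL2, chr3:134374499-134374528, inside an annotated first exon: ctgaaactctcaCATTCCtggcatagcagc

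With C-Raf overexpression in BPH-1, 3 of the 4 YAP targets fell and WWTR1, the gene of TAZ, rose. CTGF, which encodes a secreted matrix protein and is a widely used YAP reporter, fell most, and CYR61, its relative, and AMOTL2, a junction scaffold that binds and restrains YAP, fell less. ANKRD1, a nuclear ankyrin-repeat protein that YAP also switches on, rose slightly. Of the 10 members, 8 passed an adjusted p of 0.05, 4 higher and 4 lower, where 59.8% of all 13221 genes tested passed, so the count of members is near the background.

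CTGF (ENSG00000118523, chromosome 6, 131948176 to 131951373, minus strand) was at 120, 122 and 118 CPM in the 3 BPH-1 vector control libraries and at 20.97, 22.6 and 23.3 CPM in the 3 C-Raf parental libraries. The groups did not overlap, and the fitted log2 fold change was -2.42 ± 0.04 (SE, edgeR adjusted p = 1.4e-27), a 5.37-fold fall. In a bulk library, fewer cells that make a transcript and less of it per cell cannot be told apart. CYR61 (ENSG00000142871, chromosome 1, 85580761 to 85583962, plus strand) was at 436, 445 and 439 CPM in vector control and at 259, 260.2 and 257 CPM in C-Raf parental libraries. Its log2 fold change was -0.76 ± 0.03 (SE), and its groups did not overlap either. AMOTL2 (ENSG00000114019, chromosome 3, 134355874 to 134375479, minus strand) was at 489, 486 and 487 CPM in vector control and at 315, 304 and 304 CPM in C-Raf parental libraries, a log2 fold change of -0.66 ± 0.03 (SE). ANKRD1 (ENSG00000148677, chromosome 10, 90912096 to 90921276, minus strand) went the other way by a small step. It was at 54.5, 53.3 and 55.9 CPM in vector control and at 59.7, 61.9 and 59.2 CPM in C-Raf parental libraries, a log2 fold change of 0.15 ± 0.04 (SE, edgeR adjusted p = 0.00079).

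Among the coactivators, WWTR1 (ENSG00000018408, chromosome 3, 149517235 to 149736714, minus strand) rose. It was at 87.9, 88.9 and 87.4 CPM in BPH-1 vector control and at 139, 136 and 143 CPM in C-Raf parental libraries, a log2 fold change of 0.67 ± 0.03 (SE, edgeR adjusted p = 3.8e-17). YAP1 (ENSG00000137693, chromosome 11, 102110461 to 102233423, plus strand) was at 194, 202 and 196 CPM in vector control and at 208, 201 and 215 CPM in C-Raf parental libraries. These groups overlapped, and the log2 fold change of 0.08 ± 0.03 (SE, edgeR adjusted p = 0.016) no longer passed without vector control 1 (0.07, adjusted p = 0.065), vector control 3 (0.08, adjusted p = 0.051) or C-Raf parental 3 (0.05, adjusted p = 0.14).

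The kinases moved little in this comparison. LATS2 (ENSG00000150457, chromosome 13, 20973032 to 21061547, minus strand) fell from 24.2, 24.3 and 23.7 CPM to 18.1, 17.3 and 18.4 CPM, a log2 fold change of -0.42 ± 0.05 (SE). LATS2 is itself known as a YAP target. STK4 (ENSG00000101109, chromosome 20, 44966474 to 45079959, plus strand) rose by 0.11 ± 0.03 (SE) on the log2 scale, from between 132 and 139 CPM to between 143 and 147 CPM. LATS1 (ENSG00000131023, chromosome 6, 149658153 to 149718256, minus strand) was at 55.8 to 60.7 CPM in vector control and 58.4 to 60.3 CPM in C-Raf parental libraries, which overlapped. STK3 (ENSG00000104375, chromosome 8) was at 34.1 to 35.9 CPM and 31.0 to 35.9 CPM, with a log2 difference of -0.07 (edgeR adjusted p = 0.25) that passed without C-Raf parental 3 (-0.13, adjusted p = 0.029).

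**Figure D1:**
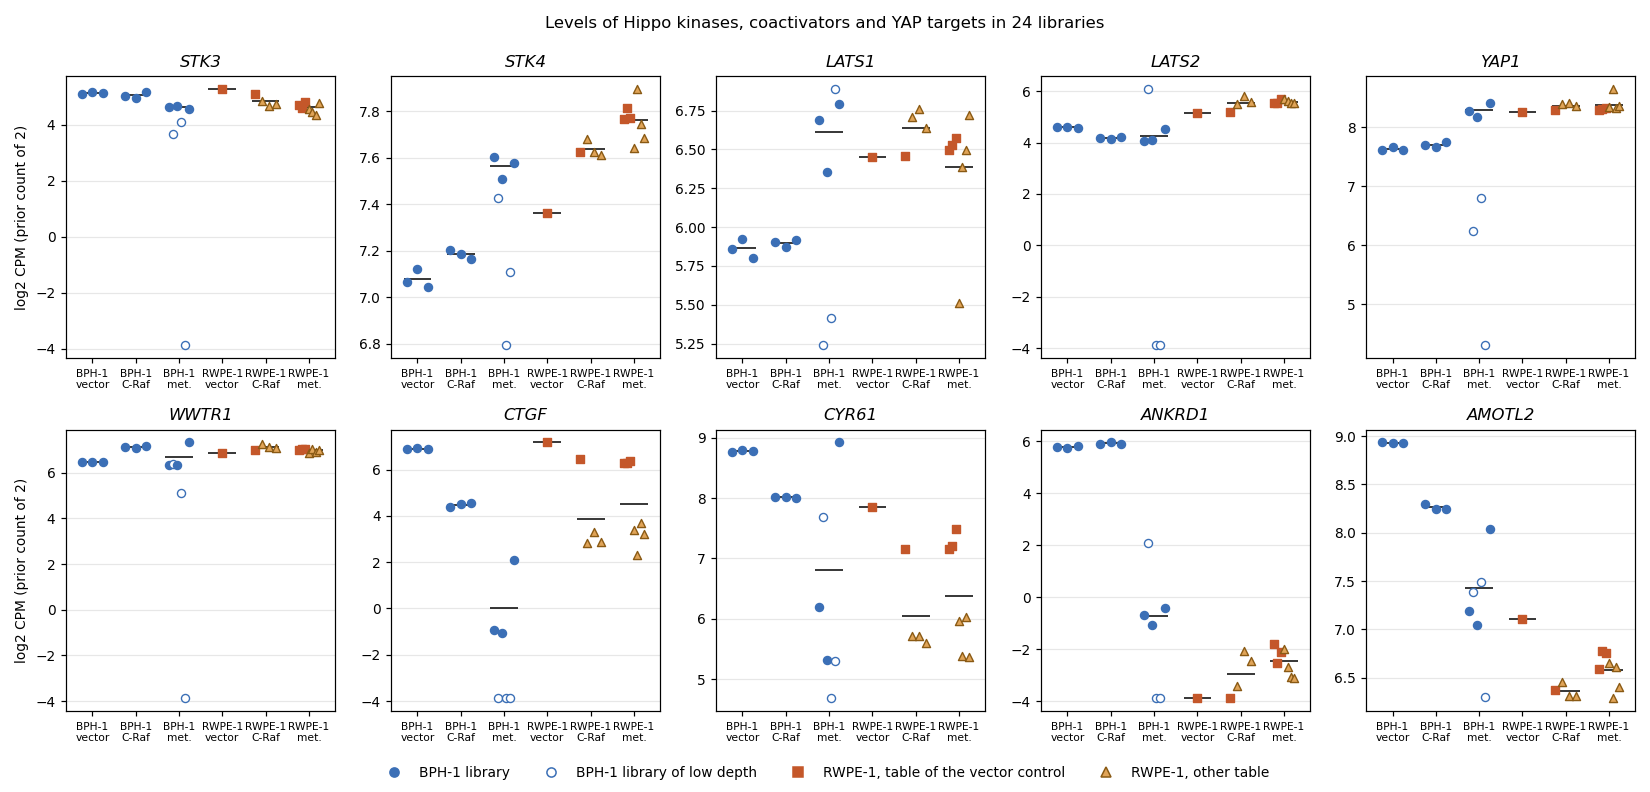
Levels of the 10 members as log2 CPM with a prior count of 2, 1 panel a gene, by cell line and stage (met. for metastasis-derived). Each point is 1 library, open circles are the 3 low-depth BPH-1 libraries, RWPE-1 libraries are marked by table, and lines are the means of the deeper libraries. CTGF falls in steps over the BPH-1 groups, ANKRD1 is near 0 CPM in RWPE-1, and CTGF and CYR61 fall into a high and a low set of RWPE-1 libraries by table.

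The same comparison in RWPE-1 has a single vector control. CTGF was at 145 CPM in it and at 87.1, 7.15, 9.87 and 7.19 CPM in the 4 C-Raf parental libraries. CYR61 was at 232 CPM in vector control and at 142, 52.3, 52.4 and 48.1 CPM in C-Raf parental libraries. AMOTL2 was at 138 CPM in vector control and at 82.8, 87.8, 79.4 and 79.2 CPM in C-Raf parental libraries. For each of these targets the vector control was above every C-Raf parental library, but C-Raf parental 1, from the table of the vector control, stood far above the other 3 for CTGF and CYR61.

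With the lone vector control assumed to vary like the C-Raf parental libraries, 0 of 9 tested members passed, as did 0 of all 13465 genes (0%). By edgeR, 2 members (CYR61 and AMOTL2) and 1853 genes had an unadjusted p under 0.05, and DESeq2 called 2 members, AMOTL2 and STK4. The log2 differences were -2.38 ± 1.37 for CTGF, -1.65 ± 0.60 for CYR61 and -0.74 ± 0.11 for AMOTL2 (SE, edgeR adjusted p = 0.44, 0.34 and 0.13). Without C-Raf parental 1, these were -4.16, -2.19 and -0.74. That setting sets the vector control of one table against libraries of the other, so table and C-Raf cannot be told apart in it.

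Within the table of the vector control, 1 library could be set against 1 with no replicate check. There CTGF, CYR61 and AMOTL2 were lower in the C-Raf parental library by 0.73, 0.71 and 0.74 on the log2 scale (-0.73, -0.71 and -0.74). These 3 of the 9 tested members were at least 1.5-fold lower, against 6.44% of all genes. At least 1.5-fold higher were 0 members, against 7.78% of all genes. The 1.5-fold limit was not planned in advance, so these shares are not read as a test. In BPH-1 the same 3 targets differed by -2.42, -0.76 and -0.66. The difference of the C-Raf effect between the cell lines passed for 0 of 10 members (edgeR, 0.453% of 15224 genes), 1 member, LATS2, had an unadjusted p under 0.05, and DESeq2 called it (-0.83, adjusted p = 0.018).

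Among the upstream members in RWPE-1, YAP1 was at 305 CPM in vector control and at 314, 334, 339 and 326 CPM in C-Raf parental libraries. WWTR1 was at 118 CPM and at 128, 152, 141 and 136 CPM. LATS2 was at 35.2 CPM and at 36.5, 45.1, 56.0 and 47.8 CPM. Each vector control value lay below all 4 C-Raf parental values, by an amount within the spread of those libraries for YAP1, WWTR1 and LATS2. STK4 was at 164 CPM in vector control and at 197, 205, 198 and 195 CPM in C-Raf parental libraries, and STK3 went the opposite way, at 38.3 CPM and at 34.2, 28.7, 25.2 and 26.5 CPM. LATS1 was at 87.6 CPM and at 87.7, 105, 108 and 99.5 CPM.

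**Figure D2:**
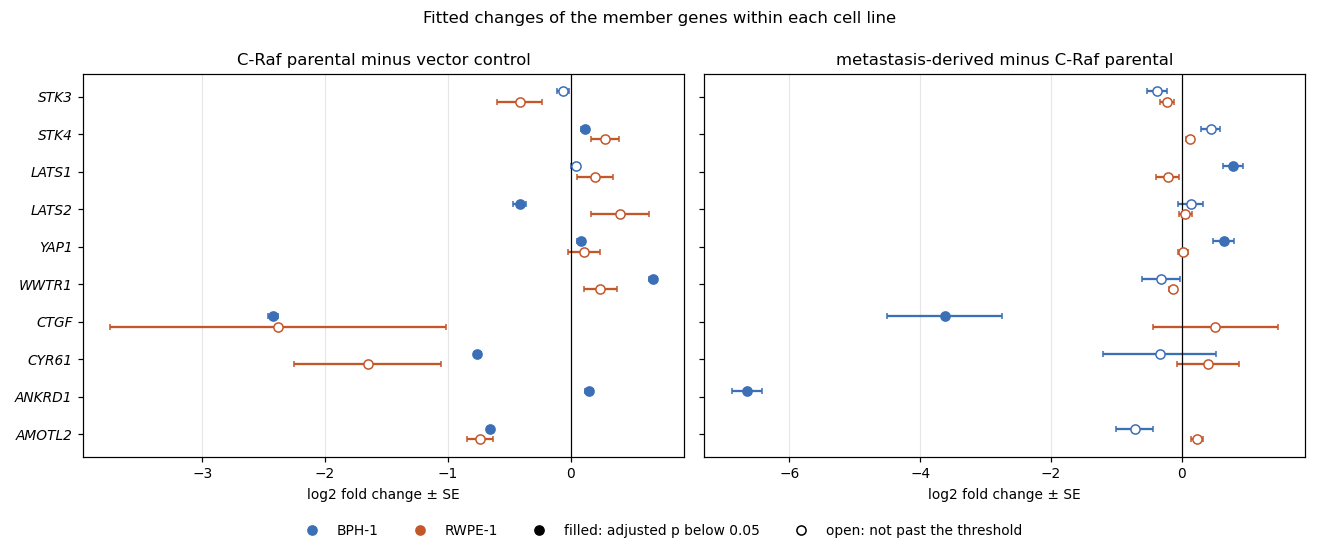
Fitted log2 fold changes with their standard errors (bars) for the 10 members, C-Raf parental minus vector control on the left and metastasis-derived minus C-Raf parental on the right, BPH-1 in blue and RWPE-1 in red. Filled points passed an adjusted p of 0.05; ANKRD1 was too low to be tested in RWPE-1. CTGF, CYR61 and AMOTL2 lie left of 0 in both cell lines on the left, and the BPH-1 falls of CTGF (-3.63) and ANKRD1 (-6.66) stand out on the right.

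In the BPH-1 metastasis-derived lines ANKRD1 was almost gone, CTGF fell further, and LATS1 and YAP1 rose after TMM scaling. ANKRD1 was at 0.564 CPM in R069, 0.413 CPM in R072 and 0.690 CPM in thymus-titled R075 against 59.2 to 61.9 CPM in C-Raf parental cells, a log2 fold change of -6.66 ± 0.23 (SE, edgeR adjusted p = 0.00060). CTGF was at 0.458 CPM in R069, 0.413 CPM in R072 and 4.22 CPM in thymus-titled R075 against 20.97 to 23.3 CPM, a log2 fold change of -3.63 ± 0.88 (SE, edgeR adjusted p = 0.021). Both genes were therefore far below every C-Raf parental library in all 3 deeper lines, and thymus-titled R075 kept the most CTGF.

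LATS1 was at 103 CPM in R069, 81.8 CPM in R072 and 111 CPM in thymus-titled R075 against 58.4 to 60.3 CPM, a log2 fold change of 0.78 ± 0.16 (SE, edgeR adjusted p = 0.012). YAP1 was at 309, 289 and 339 CPM in these lines against 201 to 215 CPM, a log2 fold change of 0.64 ± 0.16 (SE, edgeR adjusted p = 0.024), which no longer passed with no filter on low counts (0.58, adjusted p = 0.054) or with all genes of the tables (0.52, adjusted p = 0.051). In these 3 lines the CPM of YAP1 was higher, and those of CTGF and ANKRD1 were lower, than in any C-Raf parental library. In R072 the rise of YAP1, LATS1 and STK4 rests on its TMM factor. Before that scaling, R072 had 3500 YAP1, 991 LATS1 and 2205 STK4 counts among 20564794 protein-coding counts. C-Raf parental 1 had 6226, 1790 and 4400 among 28464700, a larger share for each gene. In all, 4 of 10 members passed, 2 higher and 2 lower, where 37.7% of 13444 genes passed (20.9% higher and 16.8% lower). The 2 lower, CTGF and ANKRD1, passed the filter on low counts only through the C-Raf parental group, with 5 counts each in R072. Their calls therefore restate their level in that group and add no support to the count. The libraries of 7 members did not overlap between the groups, 3 higher (STK4, LATS1 and YAP1) and 4 lower (STK3, CTGF, ANKRD1 and AMOTL2), against 59.7% of all genes tested (27.6% higher and 32.1% lower). Both shares are near those of all genes.

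The other targets differed between the metastasis-derived lines. CYR61 was at 73.3 CPM in R069 and 39.9 CPM in R072 but at 486 CPM in thymus-titled R075, on either side of the 257 to 260.2 CPM of C-Raf parental cells. AMOTL2 was at 146, 132 and 263 CPM in the same order, below the 304 to 315 CPM of C-Raf parental cells in each. WWTR1 was at 81.8, 82.1 and 161 CPM against 136 to 143 CPM, so that it was lower in both bone lines and higher in thymus-titled R075.

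By edgeR none of these 3 genes passed with all 3 deeper lines (log2 -0.34 ± 0.86 for CYR61, -0.72 ± 0.28 for AMOTL2 and -0.31 ± 0.29 for WWTR1, SE; edgeR adjusted p = 0.77, 0.089 and 0.42), while DESeq2 called AMOTL2 (-0.70, adjusted p = 0.048). Without thymus-titled R075, 8 members passed, and CYR61 (-2.12, adjusted p = 0.0046), AMOTL2 (-1.07, adjusted p = 0.0039), WWTR1 (-0.69, adjusted p = 0.0094) and STK4 (0.45, adjusted p = 0.033) were among them, with CTGF at -5.58. The share of all genes in that setting is not given here, so the count of 8 is not read as a result about the members. Over all genes, 5072 passed in the main fit, 8302 without R072, and 1958 to 2093 without 1 of the C-Raf parental libraries. STK3 and STK4 also passed without R072 (-0.43 and 0.43, adjusted p = 0.018 and 0.0049), and CTGF did not pass without R069 (-3.16, adjusted p = 0.054). Without any one of the C-Raf parental libraries, ANKRD1 alone passed; LATS1 was then between 0.74 and 0.77, YAP1 between 0.59 and 0.64 and CTGF between -3.70 and -3.62.

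The remaining kinases had small values in the BPH-1 lines. STK4 was at 195, 182 and 191 CPM against 143 to 147 CPM (log2 0.44 ± 0.15, SE, edgeR adjusted p = 0.061) and was called by DESeq2 (0.46, adjusted p = 0.00040). STK3 was at 24.9, 25.3 and 23.5 CPM against 31.0 to 35.9 CPM (log2 -0.37 ± 0.15, SE, edgeR adjusted p = 0.10). LATS2 was at 16.7, 17.3 and 22.9 CPM against 17.3 to 18.4 CPM and overlapped the C-Raf parental group.

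The low-depth libraries R071, R074 and bone-titled R075 held 0 counts of CTGF, which allows up to 12.6, 25.6 and 59.1 CPM at 3 counts. The limit of R071 lies below the C-Raf parental libraries, and those of the other 2 do not. ANKRD1 had 1 count in R071 and 0 in the others. YAP1, in contrast to the deeper lines, had 18, 13 and 1 counts, or 75.5, 111 and 19.7 CPM, each below the C-Raf parental range. With these libraries in the fit, CTGF (-3.82) and ANKRD1 (-6.68) passed, LATS1 (0.38, adjusted p = 0.66) did not, and YAP1 turned to -0.16 (adjusted p = 0.89).

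The RWPE-1 metastasis-derived lines differed little from RWPE-1 C-Raf parental cells in any member. Of 9 members tested, 0 passed, where 0.0986% of 13178 genes passed. By edgeR 2 members, WWTR1 and AMOTL2, had an unadjusted p under 0.05, with the share of all genes not given here, and DESeq2 called 0 members. No member's libraries were separated by stage, against 1.68% of all genes. LATS1 ranged from 45.6 to 106 CPM over the 7 lines with a median of 90.4 CPM, against 87.7 to 108 CPM in C-Raf parental cells, and Spine2 held the lowest value. YAP1 ranged from 312 to 399 CPM with a median of 321 CPM, and Bone4 held the highest. AMOTL2 ranged from 78.1 to 110 CPM with a median of 97.5 CPM, against 79.2 to 87.8 CPM, a log2 difference of 0.23 ± 0.09 (SE, edgeR adjusted p = 0.55).

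Among the RWPE-1 C-Raf libraries, CTGF and CYR61 followed the table, and not whether the library was C-Raf parental or metastasis-derived. In the table of the vector control, CTGF was at 87.1 CPM in C-Raf parental 1 and at 77.4, 78.3 and 83.7 CPM in LN1A, LN1B and Spine. In the other table it was at 7.15, 9.87 and 7.19 CPM in C-Raf parental 2 to 4 and at 10.5, 4.84, 12.8 and 9.17 CPM in Spine2, Bone4, Bone5 and Bone6. No library of one table reached a value of the other. CYR61 showed the same order, at 142 to 180 CPM in the 4 C-Raf libraries of the first table and at 41.4 to 65.2 CPM in the 7 of the second.

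YAP1 was the only other tested member whose C-Raf libraries did not overlap between the tables, slightly higher in the second (312 to 320 CPM against 321 to 399 CPM). These are 3 of 9 tested members, against 7.88% of all genes (3.27% higher and 4.61% lower in the second table). What sets the tables apart (day, passage, library preparation or sequencing run) is not given in the sources used here. With the table as a term, the log2 difference between metastasis-derived and C-Raf parental libraries was 0.09 for CTGF and 0.07 for CYR61 instead of 0.51 and 0.40. Within the table with 3 C-Raf parental libraries these differences were 0.20 and 0.04, and within the table with 1 they were -0.13 and 0.14, none of which passed. Since both spine lines were split over the tables and all bone lines were in the second, the sites cannot be compared for CTGF without comparing the tables. Within the second table, Spine2 (10.5 CPM) lay inside the range of the bone lines (4.84 to 12.8 CPM).

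**Figure D3:**
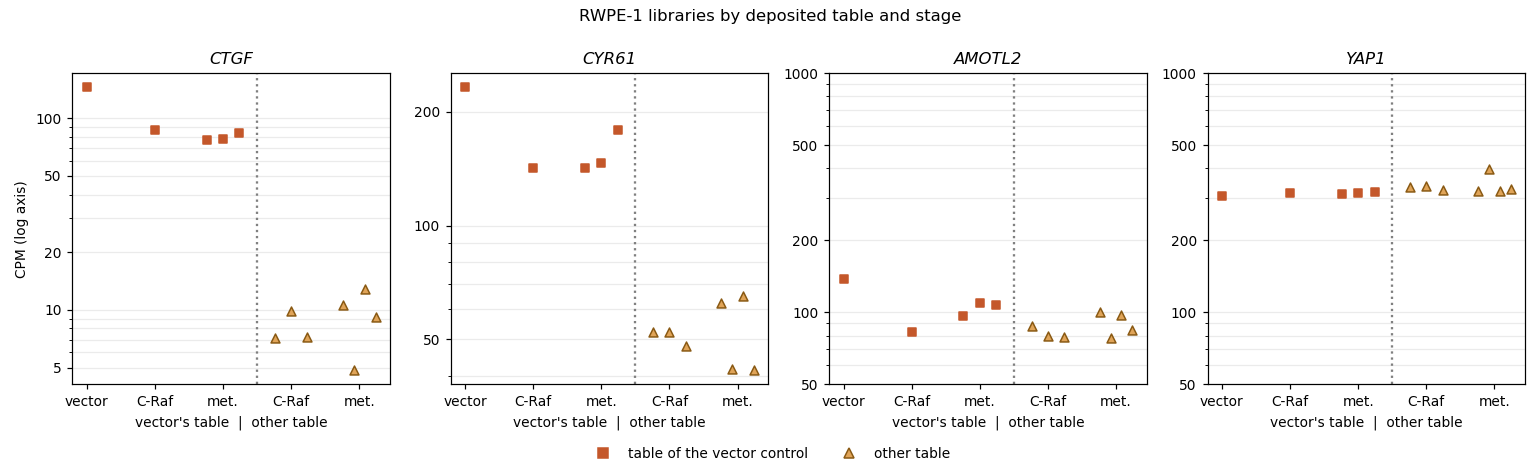
CPM on a log axis of CTGF, CYR61, AMOTL2 and YAP1 in the 12 RWPE-1 libraries, by table (squares and triangles, separated by the dotted line) and stage. CTGF is at 77.4 to 145 CPM in the first table and 4.84 to 12.8 CPM in the second at both stages, while AMOTL2 and YAP1 span narrow ranges, and the vector control is the highest square for CTGF, CYR61 and AMOTL2.

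The metastasis effect differed between the cell lines for 4 of the 9 members tested in both, where 46.4% of 15224 genes passed this test (24.4% with the BPH-1 effect higher and 22% with it lower). The BPH-1 effect exceeded that of RWPE-1 by 0.94 ± 0.25 for LATS1 and 0.57 ± 0.13 for YAP1 on the log2 scale (SE, edgeR adjusted p = 0.0053 and 0.0018). It was below that of RWPE-1 by -0.99 ± 0.24 for AMOTL2 and -4.13 ± 1.498 for CTGF (SE, edgeR adjusted p = 0.0022 and 0.031). ANKRD1 also passed (-7.33 ± 0.62, SE), but it was too low to be tested in RWPE-1 and entered the fit only through BPH-1, so its value restates the BPH-1 fall and is not counted as a difference between the lines. CTGF did not pass without any one of RWPE-1 C-Raf parental 2, 3 or 4 or without R069 or R072 (-3.85 to -3.62, adjusted p = 0.051 to 0.082). With the low-depth libraries, LATS1 (0.75, adjusted p = 0.11) and YAP1 (0.01, adjusted p = 1) did not pass. Without thymus-titled R075, WWTR1 (-0.63) and CYR61 (-2.58) passed as well. STK4 did not pass (0.25, edgeR adjusted p = 0.067), but did by DESeq2 (0.34, adjusted p = 5.9e-05), with RLE size factors (0.34, adjusted p = 0.015), when genes needed 10 counts or more in each library (0.35, adjusted p = 0.0090), and without Bone4 (0.27, adjusted p = 0.033), R072 (0.28, adjusted p = 0.017) or the RWPE-1 vector control (0.28, adjusted p = 0.041). In fits that pooled the cell lines, 0 of 10 members passed between C-Raf parental and vector control (0.815% of genes) and 0 of 10 between metastasis-derived and C-Raf parental libraries (2.5% of genes). The closest were AMOTL2 in the former (-0.82, adjusted p = 0.061), which DESeq2 called together with WWTR1 (0.52), and STK3 (-0.31, adjusted p = 0.072) and STK4 (0.22, adjusted p = 0.081) in the latter, both of which DESeq2 called. By edgeR, 5 and 4 members had an unadjusted p under 0.05 in these pooled fits, for which the share of all genes is not given here.

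Among the members, ANKRD1 differed most between the cell lines, which also differ in medium and table. It had 0 to 9 counts in each of the 12 RWPE-1 libraries, or 0 to 0.220 CPM, against 53.3 to 61.9 CPM in the vector control and C-Raf parental cells of BPH-1. Between C-Raf parental libraries, 7 of 10 members passed, 4 higher and 3 lower in RWPE-1, with ANKRD1 among the lower. Of all 13521 genes 74% passed (38% higher and 36% lower), so the count of members is not above the background. LATS2 (1.37 ± 0.14), LATS1 (0.76 ± 0.08), YAP1 (0.67 ± 0.06) and STK4 (0.46 ± 0.05) were higher in RWPE-1, and AMOTL2 (-1.90 ± 0.06), CYR61 (-1.81 ± 0.38) and ANKRD1 (-9.52 ± 0.35) were lower (log2 ± SE). ANKRD1 passed the filter on low counts only through BPH-1, so its call restates its level in BPH-1 and adds no support to the count. CTGF did not pass (0.32 ± 0.92, SE, edgeR adjusted p = 0.77). Its sign depended on the table: it was -1.46 against the 3 RWPE-1 libraries of the second table (adjusted p = 5.4e-05) and 1.97 against the 1 of the first. WWTR1 was near equal (0.00 ± 0.07), and -0.12 against that 1 library. STK3, at -0.21 (adjusted p = 0.13), passed against the 3 libraries of the second table (-0.31, adjusted p = 0.0079).

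Per kilobase of all annotated exons, the genes can be compared only roughly, since the transcripts expressed may be shorter. CYR61 was the highest member in BPH-1 vector control, at 179 CPM per kilobase. It was followed by AMOTL2 at 81.5, CTGF at 51.4, YAP1 at 31.4 and ANKRD1 at 27.6. In the deeper BPH-1 metastasis-derived libraries YAP1 averaged 49.6 CPM per kilobase, above AMOTL2 at 30.2, and CYR61 averaged 81.4 over lines that lay as far apart as 39.9 and 486 CPM. In RWPE-1 C-Raf parental cells YAP1 led, at 52.2 CPM per kilobase, followed by CYR61 at 30.04, which was at 57.9 in C-Raf parental 1. The kinases STK3, LATS1 and LATS2 stayed between 1.95 and 11.6 CPM per kilobase in the means of all groups, and STK4 between 14.9 and 23.9.

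The balance of the paralogs was followed as a log2 ratio of counts per kilobase within each library, which does not depend on the scaling between libraries. The size of a ratio, but not its change between groups, rests on the annotated exon lengths. YAP1 exceeded WWTR1 2.99-fold in BPH-1 vector control, 1.99-fold in C-Raf parental and 4.05-fold in the deeper metastasis-derived libraries. In the last group the log2 ratio was 2.33 in R069, 2.23 in R072 and 1.49 in thymus-titled R075. LATS1 exceeded LATS2 1.56-fold, 2.14-fold and 3.36-fold over the same stages. STK3 was at 0.186, 0.164 and 0.0935 of STK4. In RWPE-1 the same ratios were 3.46, 3.16 and 3.49 for YAP1 to WWTR1, 1.60, 1.40 and 1.12 for LATS1 to LATS2, and 0.168, 0.103 and 0.0810 for STK3 to STK4.

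Between RWPE-1 metastasis-derived (n = 7) and C-Raf parental (n = 4) libraries the log2 ratio STK3/STK4 was lower by 0.35 (-0.35, two-sided exact permutation p = 0.018, Benjamini-Hochberg adjusted over the 3 ratios p = 0.055). All 7 lines were below the C-Raf parental mean. LATS1/LATS2 differed by -0.32 (exact permutation p = 0.067, adjusted 0.067) and YAP1/WWTR1 by 0.14 (exact permutation p = 0.067, adjusted 0.067), the latter higher than the C-Raf parental mean in 7 of 7 lines. None passed the threshold. Within the table with 3 C-Raf parental libraries the differences were -0.31, -0.39 and 0.25 (exact permutation, adjusted p = 0.17, 0.29 and 0.17).

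**Figure D4:**
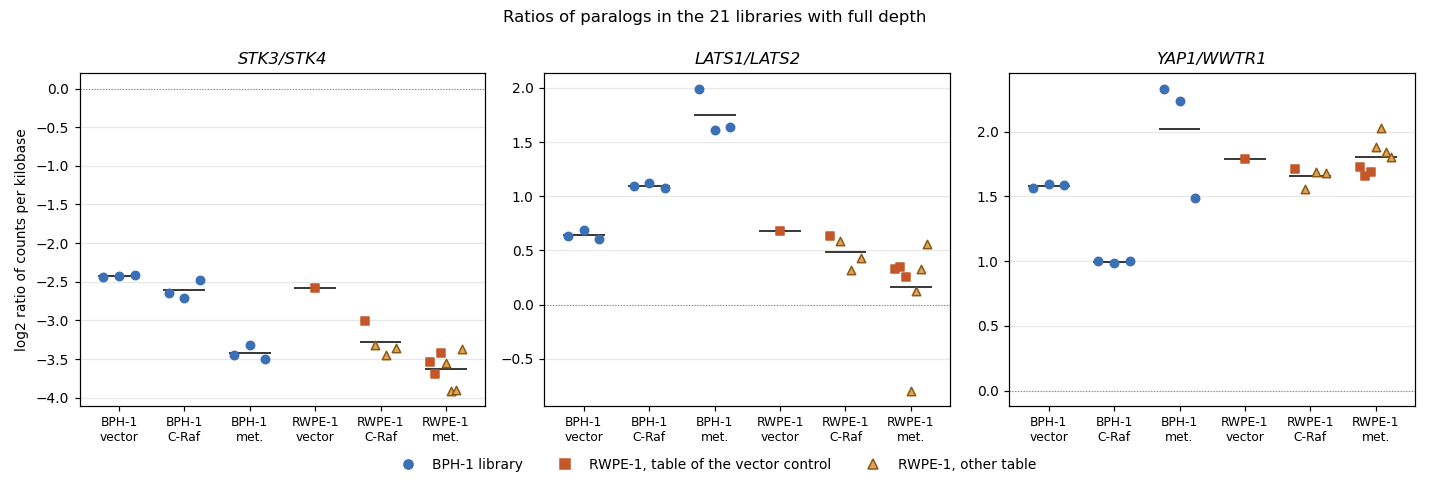
Log2 ratios of counts per kilobase of STK3 to STK4, LATS1 to LATS2 and YAP1 to WWTR1 in the 21 deeper libraries, by cell line and stage; lines are group means. STK3 is below STK4 in every library, and LATS1 exceeds LATS2 in all but Spine2 (-0.79). The BPH-1 groups separate for STK3/STK4 and LATS1/LATS2 but not for YAP1/WWTR1.

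Other Hippo pathway genes, a list of 26 from general knowledge with earlier results of these data known, were mostly lower with C-Raf in BPH-1. Of them, 18 fell, 2 rose and 6 did not pass, against 29.4% of all genes falling and 30.4% rising, with a median log2 fold change of -0.16 against -0.00 for all genes. AMOT, an angiomotin that binds YAP, fell from a mean of 4.56 ± 0.54 to 0.358 ± 0.108 CPM (SD, n = 3 each), a log2 fold change of -3.66 ± 0.21 (SE). FAT4, an atypical cadherin that acts upstream of the kinases, fell by 2.19 ± 0.12, from 6.90 to 1.51 CPM. VGLL1, a TEAD cofactor, fell by 1.41 ± 0.06, from 22.9 to 8.57 CPM. The 2 genes that rose were SAV1, the scaffold of STK3 and STK4 (90.9 to 133 CPM), and MAP4K4, a kinase that acts on LATS, which were named after their values were seen. In RWPE-1, 0 of the 26 passed by edgeR, 5 had an unadjusted p under 0.05, and DESeq2 called 3. The last counts have no share of all genes beside them and are not read as a result about the list. AMOT (1.01 CPM in vector control, 2.56 to 6.46 CPM in C-Raf parental libraries) and FAT4 (1.25 and 3.15 to 11.7 CPM) had a C-Raf effect that was lower in BPH-1 than in RWPE-1, with BPH-1 minus RWPE-1 at -5.80 ± 0.96 and -4.66 ± 0.99 on the log2 scale (SE, edgeR adjusted p = 0.0097 and 0.042). These 2 values rest on the 1 RWPE-1 vector control library, assumed to vary like the other groups, and 3 of the 4 RWPE-1 C-Raf parental libraries came from the other table.

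In the BPH-1 metastasis-derived lines 3 of the 25 tested genes of this list rose, 4 fell and 18 did not pass, against 37.7% of all genes passing. VGLL1 fell by 3.28 ± 0.52, to 0.248 to 1.42 CPM. SAV1 fell by 1.29 ± 0.31, to 37.1 to 80.5 CPM, after its rise with C-Raf. TAOK1, a kinase that activates STK3 and STK4, rose by 1.498 ± 0.16 (SE, edgeR adjusted p = 0.0024), from 105 to 116 CPM in C-Raf parental cells to 289 to 317 CPM. In RWPE-1, 0 of the 25 tested passed between these stages by edgeR. With no share of all genes beside them, 4 had an unadjusted p under 0.05, and DESeq2 called 2.

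The other list held 17 further genes of a conserved YAP and TAZ target signature of 22 genes. It too was written from general knowledge with earlier results of these data known. Of the 17, 10 fell and 5 rose with C-Raf in BPH-1, where 29.4% of all genes fell and 30.4% rose. Their median log2 fold change was -0.18. TGFB2, a secreted growth factor, fell from 60.8 ± 2.0 to 11.8 ± 0.59 CPM (SD, n = 3 each; log2 -2.36 ± 0.05, SE), and IGFBP3, which binds insulin-like growth factors, fell from 469 ± 8.2 to 97.1 ± 2.4 CPM (log2 -2.26 ± 0.03, SE). NT5E, the surface nucleotidase CD73, rose from 101 ± 3.2 to 366 ± 8.0 CPM (log2 1.86 ± 0.03, SE). The signature therefore did not move one way, and its largest falls were about as large as that of CTGF.

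In the BPH-1 metastasis-derived lines 5 of the 17 rose, 2 fell and 10 did not pass, near the 20.9% of all genes that rose and 16.8% that fell. FJX1, a secreted Golgi protein, fell by 2.41 ± 0.45 (SE), from 92.7 to 101 CPM to 8.09 to 30.1 CPM. AXL, a receptor tyrosine kinase, fell by 1.74 ± 0.29 (SE), from 314 to 333 CPM to 72.1 to 137 CPM. RBMS3, an RNA-binding protein, rose by 2.10 ± 0.36 (SE), from 2.27 to 2.54 CPM to 6.45 to 14.03 CPM. In RWPE-1, 0 of the 17 passed in either comparison by edgeR. An unadjusted p under 0.05 was found for 8 and 3, and DESeq2 called 4 and 1. Without the share of all genes beside them, these counts are not read as a result about the signature.

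**Figure D5:**
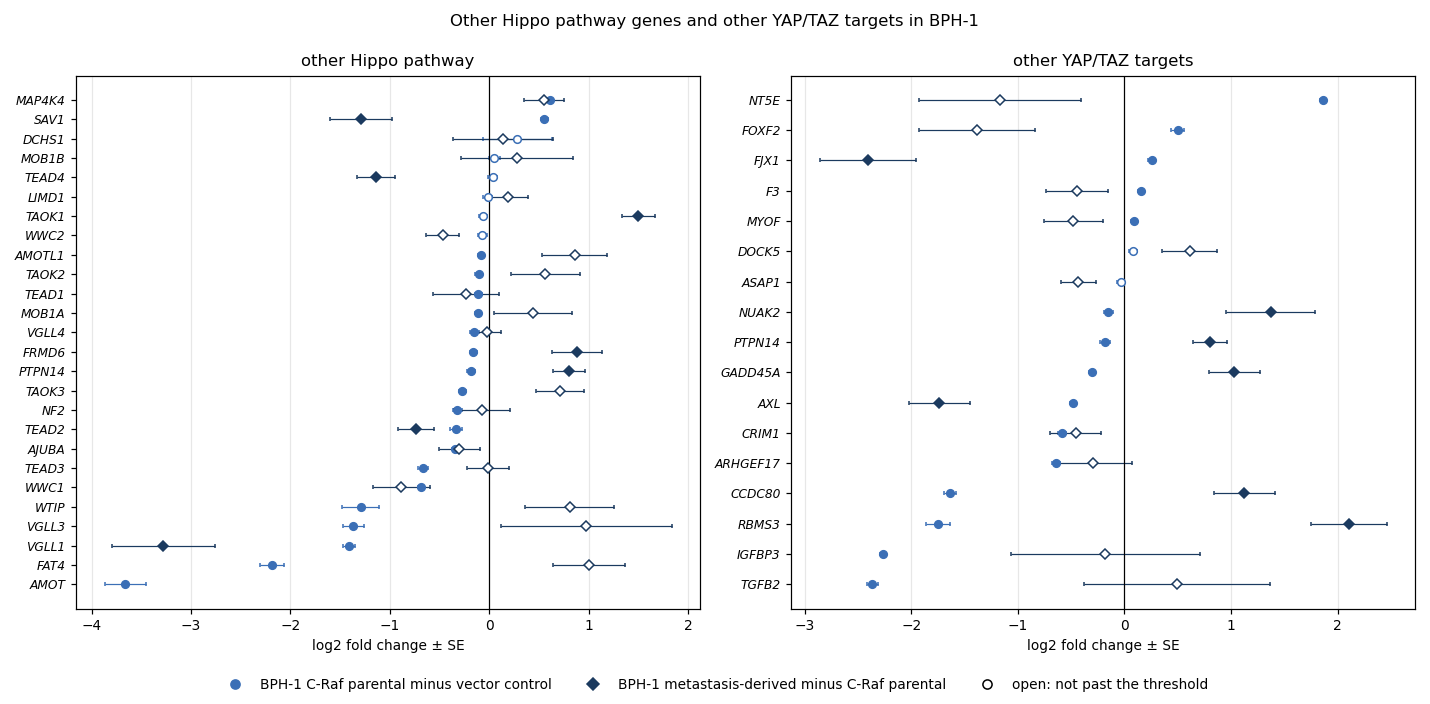
Log2 fold changes with standard errors (bars) of 26 other Hippo pathway genes and 17 other YAP and TAZ targets in BPH-1, ordered by the C-Raf effect (circles); diamonds are the metastasis effect, and open symbols did not pass. Of the pathway genes 18 fell with C-Raf, AMOT most (-3.66), and TAOK1 (1.498) and VGLL1 (-3.28) stand out in the metastasis-derived lines.

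With the cell line means subtracted, the protein-coding genes most like YAP1 over the 21 deeper libraries were COL4A3BP, PALB2 and ARNTL (Pearson r of log2 CPM = 0.97, 0.97 and 0.96), and those most like CTGF were QPCTL, PLK2 and HSDL2 (r = 0.95, 0.93 and 0.92), among 12608 genes with a mean of at least 1 CPM. Among the members, CTGF went with AMOTL2 (r = 0.91) and CYR61 (r = 0.89), and YAP1 went against ANKRD1 (r = -0.86) and CTGF (r = -0.80). These libraries share groups and tables, so the values describe the pattern over the groups and carry no test.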

How the data were processed

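The authors deposited 4 tables of expected counts per gene symbol for the 24 libraries. The submitters' processing notes name FastQC, cutadapt, STAR, RSEM and build hg38, and the methods describe a TOIL pipeline. The annotation and the versions are not given in the sources used here. The expected counts carry no scaling, batch adjustment or gene filter. Reads that RSEM splits between paralogs make small differences between such genes uncertain.

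Expected counts were rounded and kept for protein-coding symbols of GENCODE version 29 (36628 symbols matched, 850 more by older names in RefSeq). Genes were filtered by filterByExpr with the group, scaled by TMM and tested by the quasi-likelihood test of edgeR 4.0.16 (R 4.3.3), with Benjamini-Hochberg adjustment over all genes tested and a threshold of 0.05. Standard errors were derived from the F statistic. The scripts were tested on simulated data. Groups followed the labels. Log2 levels used a prior count of 2, and paralog ratios added 0.5 counts and were tested with SciPy 1.17.1. For counts of 0 the level that 3 counts would give is printed, which covers counting error only. Depth was ample in 21 libraries and limits only the 3 low-depth ones, while CPM in R072 also rest on its TMM factor. Replicate numbers shared by the vector control and C-Raf parental groups of BPH-1 did not pair them (correlation of same-numbered deviations -0.054 to -0.020), so no block was used. The mean squared difference between pairs of libraries, over that which counting alone gives, was 1.68 to 4.54 within BPH-1 vector control. It was 2.04 to 2.14 within BPH-1 C-Raf parental, and at least 17.7 within the other groups.

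All members are named. Of each further list, up to 3 genes with the largest absolute log2 fold change per comparison within a cell line are named, if they passed and averaged at least 1 CPM, besides those that passed a difference between cell lines and those named as chosen later. The members and lists were chosen with earlier results of these data known. Counts at an unadjusted p or by DESeq2 are not read as results about the genes where no share of all genes is given. Alternatives were DESeq2 1.42.0, RLE size factors, other filters, all genes, ComBat-seq (sva 3.50.0), the replicate block, the tables as a term or alone, and each library left out. The transgene is not reported here.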

Additional observations from a re-analysis of the deposited data

Results flagged for a closer look

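In groups of 4 to 7 libraries, a library whose gap to its nearest neighbour took more of the group's range than Dixon's 95% limit was singled out, which chance does in about 1 in 20 groups. This happened in 5 of 26 groups. In RWPE-1 C-Raf parental cells, C-Raf parental 1 was the highest for CTGF (6.45 log2 CPM, a gap of 0.872 of the range) and CYR61 (7.15 log2 CPM, 0.921 of the range), and it is the 1 C-Raf parental library of the vector control's table. Among RWPE-1 metastasis-derived lines, Spine2 was the lowest for LATS1 (5.51 log2 CPM) and for LATS1/LATS2 (log2 ratio -0.79), while its LATS2 level of 51.0 CPM lay within the 46.2 to 51.4 CPM of the 7 lines. Bone4 was the highest for YAP1 (8.64 log2 CPM). For 4 of the 9 members tested in both cell lines the metastasis effect differed between the lines by an interaction test. That is near the 46.4% of all 15224 genes that passed it. BPH-1 minus RWPE-1 was 0.94 for LATS1, 0.57 for YAP1, -4.13 for CTGF and -0.99 for AMOTL2 on the log2 scale, with stage and table not separable in BPH-1. ANKRD1 also passed (-7.33), but it was near 0 CPM at each RWPE-1 stage and too low to be tested there, so its value restates the BPH-1 fall.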

How the results depend on the processing

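Of 178 counts of members under other settings, 154 stayed within 1.5 times the reported count. The BPH-1 metastasis count of 4 became 2 when genes needed 10 counts or more in each library, which removes CTGF and ANKRD1, and 2 with the low-depth libraries, which turned YAP1 to -0.16. It ran from 1 to 8 with each library left out, where the count over all genes moved too (1958 without C-Raf parental 1 and 8302 without R072, against 5072). The RWPE-1 C-Raf count under other settings rests on the lone vector control and is not read as a result about the members. It could not be fitted without that library. Pooled, the C-Raf count of 0 became 2 with DESeq2, 1 with RLE size factors and 1 with ComBat-seq, and 0 to 2 with each library left out. The pooled metastasis count of 0 became 2 with DESeq2, 2 with ComBat-seq, 1 with all genes and 1 with a term for the RWPE-1 table (chosen after seeing the data), and 0 to 1 with each library left out. The metastasis difference between cell lines, ANKRD1 included, went from 5 to 3 with the low-depth libraries and ran from 4 to 7 with each library left out. That of C-Raf went from 0 to 1 with DESeq2 and ran from 0 to 1. For RWPE-1 against BPH-1, CTGF ran from -1.46 to 0.64 with each library left out and turned to -1.46 without RWPE-1 C-Raf parental 1, which is the same as keeping the 3 libraries of the other table (chosen after seeing the data), and WWTR1 turned to -0.12 against that 1 library alone (also chosen later). With each library left out, STK3/STK4 ran from -0.40 to -0.26, LATS1/LATS2 from -0.39 to -0.16 and YAP1/WWTR1 from 0.11 to 0.17, and STK3/STK4 (-0.34) and YAP1/WWTR1 (0.17) passed without LN1B. The causes were not tested. With the replicate block, the BPH-1 C-Raf count stayed at 8 members and no call changed; the same numbers did not deviate together. The 3 low-depth libraries limit what can be said of CTGF, STK3 and LATS2 there.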
